A study of Homo sapiens with 87 samples.

Results

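ARID1A, ARID1B and ARID2 are the 3 subunits of the BAF (SWI/SNF) chromatin remodelling complexes that carry an AT-rich interaction domain, a fold that binds DNA. They were chosen by name and are 3 of the 35438 genes that each count table lists. BAF complexes use the ATPase SMARCA4 or SMARCA2 to move nucleosomes. ARID1A and ARID1B are paralogs that occupy the same place in the canonical complex, so that a given complex holds one or the other. ARID2 belongs to the PBAF form, together with PBRM1, BRD7 and PHF10. Loss of ARID1A is frequent in several cancers, and cells without ARID1A are known to depend on ARID1B.

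HAP1, the line used throughout, is nearly haploid and descends from the cells of a chronic myeloid leukaemia. Its poly-A RNA was sequenced in single reads of 50 bases. The knockout table held 75 libraries in 25 groups of 3, namely wild type (clone C631) and 24 knockout groups that had each lost 1 of 22 BAF genes. These are called clones here, although the labels name no clone for SMARCC2. ARID1A was lost in 2 clones (618-10 and 618-3), ARID1B in clone 582-7 and ARID2 in clone 907-9. A separate double-loss table held 12 libraries in 6 groups of 2. These were wild type with a control knockdown, ARID2 knockout with a control or a SMARCA4 knockdown, SMARCA4 knockout with a control or an ARID2 knockdown, and wild type with both knockdowns. All groups were untreated otherwise, as far as the labels say. The labels give neither the mutation of a clone nor whether the libraries of a group stem from different cultures, so p-values measure the spread between these libraries, which may be technical. Other than ARID1A and SMARCA4, every genotype of the knockout table for which the labels name a clone had 1, and clone and genotype cannot be told apart there. The SMARCC2 samples are numbered among those of the double-loss table, apart from the other knockout samples. For SMARCC2, genotype and sample set cannot be told apart.

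The summed counts of a library ran from 14917644 to 29993652 for the knockouts, and for the double-loss libraries from 9144150 to 19789622. All 3 genes passed the filter on low counts in both tables. Of 8 blood lineage markers, 6 lay under 1 CPM (counts scaled to a library sum of 1000000) in wild type, PTPRC, GATA1 and SPI1 among them, and TAL1 (16.1 CPM) and KIT (9.89 CPM) were the exceptions. The lists for lung epithelium and fibroblasts had 5 of 6 and 6 of 7 markers under 1 CPM in wild type.

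The transcript sequences show whether reads of this length can tell the paralogs apart, which every comparison of one with the other rests on. In the GENCODE annotation of GRCh38, no stretch of 50 bases was shared between the transcripts of the 3 genes. The longest shared coding run was 25 bases for ARID1A and ARID1B, 14 for ARID1A and ARID2, and 15 for ARID1B and ARID2. The run common to ARID1A and ARID1B is a repeat of cag and reads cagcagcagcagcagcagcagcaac. Below is one of the 12 pairs of 50-base coding windows, low-complexity sequence left out, in which ARID1A and ARID1B were most alike, with 44 matching bases. The ARID1A window lies in exon 12 at chr1:26771161-26771210 and the ARID1B window in exon 14 at chr6:157184273-157184322, both on the plus strand of GRCh38. Capitals mark the 6 bases at which they differ.
ARID1A: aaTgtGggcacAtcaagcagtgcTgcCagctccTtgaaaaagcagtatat
ARID1B: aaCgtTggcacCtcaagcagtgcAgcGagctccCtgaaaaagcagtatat
Even in these windows a read of either gene carried 6 differences. Another gene of the annotation held 0.683% of the 50-base stretches of ARID1A, 0.183% of those of ARID1B and 0% of those of ARID2. How reads with several matches were counted is not given in the sources used here.

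Each of the 3 genes was lowest in the clones that had lost it, and in none of them was its mRNA gone. All 4 own losses passed against wild type at an adjusted p of at most 0.05. The share of all 16159 genes tested that passed against wild type was 18.6% in clone 618-10, 17.6% in clone 618-3, 24.8% in the ARID1B clone and 14.9% in the ARID2 clone. ARID1A, in CPM, was 241, 220 and 189 in the wild-type libraries. It was 125, 107 and 118 in clone 618-10 and 90.4, 89.7 and 99.3 in clone 618-3. All 6 libraries of the ARID1A clones lay below all 69 libraries of the other 23 groups, which ran from 163 to 273 CPM with a median of 213. Clone 618-10 held 53.6% of the wild-type level, a log2 fold change of -0.90 ± 0.11 (SE, n = 3 against 3, edgeR quasi-likelihood test, adjusted p = 2.0e-09). Clone 618-3 held 42.4%, a log2 fold change of -1.24 ± 0.11 (adjusted p = 9.2e-14, edgeR).

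ARID1B in CPM was 57.0, 50.7 and 48.8 in wild type and 15.6, 12.5 and 21.1 in clone 582-7. No library of the 72 in the other groups fell below 27.5 CPM. The clone held 31.7% of the wild-type level, the largest loss of its own mRNA among the 4 clones, with a log2 fold change of -1.66 ± 0.21 (SE, n = 3 against 3, edgeR, adjusted p = 3.4e-09). ARID2 in CPM was 48.6, 50.2 and 39.4 in wild type and 29.5, 27.2 and 29.5 in clone 907-9. The lowest of the 72 libraries in the other groups was at 32.7 CPM. Clone 907-9 held 63.0% of the wild-type level (log2 fold change -0.67 ± 0.12, SE, n = 3 against 3, edgeR, adjusted p = 1.4e-05). Gene-level counts take in reads from every exon, so these values do not show which part of the mRNA or whether any protein remained. In bulk libraries a lower level in every cell and its loss in some of the cells cannot be told apart.

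**Figure D1:**
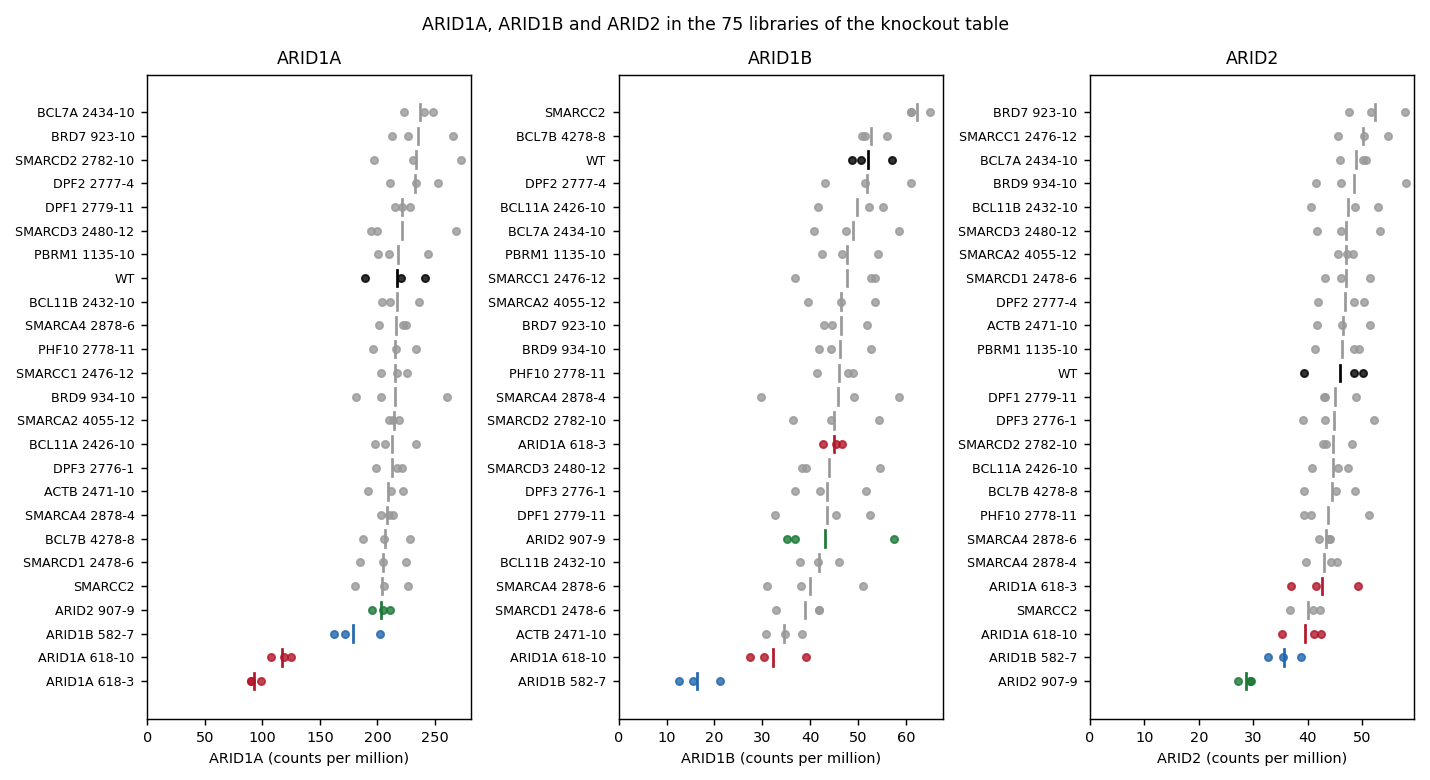
CPM (horizontal axis, from 0) of ARID1A, ARID1B and ARID2 in the 75 libraries of the knockout table, one row per group ordered by its mean. Points are libraries and short lines group means, with wild type in black, ARID1A clones in red, the ARID1B clone in blue, the ARID2 clone in green and the other 20 clones in grey; the group that lost the gene is lowest in each panel.

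No ARID gene passed as higher in a clone that had lost another one, and ARID1B in ARID1A clone 618-10 and ARID2 in the ARID1B clone were lower. ARID1B in clone 618-10, which had lost ARID1A, was 30.3, 27.5 and 39.2 CPM, below all 3 wild-type libraries. It was lower there, at 61.7% of wild type (log2 fold change -0.70 ± 0.20, SE, n = 3 against 3, edgeR, adjusted p = 0.0082). Without replicate 2 of that clone the adjusted p was 0.074 (edgeR). In clone 618-3 ARID1B was 42.7, 46.7 and 45.3 CPM, also below the wild-type libraries. Its log2 fold change there was -0.24 with a 95% interval from -0.63 to 0.16 (edgeR, adjusted p = 0.49). That interval leaves room for a rise of at most 0.16 on the log2 scale.

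In the ARID1B clone, ARID1A was 172, 202 and 163 CPM, and its range overlapped that of wild type. The log2 fold change of -0.27 ± 0.11 (SE, n = 3 against 3) missed the threshold of 0.05 with an adjusted p of 0.058 (edgeR). It came under the threshold without replicate 3 of wild type (adjusted p = 0.022) and without replicate 2 of the clone (adjusted p = 0.020). ARID2 in that clone was 35.5, 38.7 and 32.7 CPM, below the lowest wild-type library at 39.4 CPM. It was lower, with a log2 fold change of -0.37 ± 0.12 (SE, n = 3 against 3, edgeR, adjusted p = 0.015). The adjusted p of ARID2 rose to 0.065 and 0.098 without wild-type replicates 1 and 2, and to 0.055 and 0.069 without replicates 1 and 3 of the clone.

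ARID2 gave log2 fold changes of -0.23 in clone 618-10 (adjusted p = 0.19) and -0.13 in clone 618-3 (adjusted p = 0.51). In clone 618-10 it was 42.4, 41.1 and 35.3 CPM, and in clone 618-3 it was 49.3, 37.0 and 41.5 CPM. Both ranges overlapped that of wild type. In the ARID2 clone, ARID1A was 211, 195 and 205 CPM, within the wild-type range (log2 fold change -0.08, 95% interval from -0.30 to 0.14, adjusted p = 0.74). ARID1B there was 36.9, 35.2 and 57.5 CPM, with the third library above every wild-type library (log2 fold change -0.26, 95% interval from -0.66 to 0.14, adjusted p = 0.46).

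Of the 8 comparisons of an ARID gene in a clone that had lost a different one, 2 passed, both lower. Between 14.9% and 24.8% of all genes tested passed in these clones, so this count is near the background and nothing about the ARID genes is read from it. The 4 clones share the wild-type libraries, so these values are not independent.

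The mean of the 20 clones that had lost a gene outside this family gave a reference that does not rest on the wild-type libraries. Its SE, intervals and p-values come from the spread of libraries within groups and leave out the spread between clones. Own losses were much the same on it, at -0.89 and -1.23 for ARID1A in clones 618-10 and 618-3, -1.46 for ARID1B and -0.66 for ARID2 (log2 fold change, adjusted p of at most 3.4e-08, edgeR). ARID1B in clone 618-10 was lower by less than against wild type, at -0.50 ± 0.15 (SE, adjusted p = 0.011), and missed the threshold without replicate 1 (adjusted p = 0.089) or replicate 2 of that clone (adjusted p = 0.15). In clone 618-3 it was -0.04, with an interval from -0.33 to 0.25. ARID1A in the ARID1B clone passed on this reference (-0.27 ± 0.08, SE, adjusted p = 0.0075), but not without replicate 1 (adjusted p = 0.085) or replicate 3 of the clone (adjusted p = 0.092). ARID2 in the ARID1B clone passed as well (-0.36 ± 0.09, SE, adjusted p = 0.00084), and its adjusted p without any single library of the clone was at most 0.020. Against these 20 clones, 22.7%, 21.4%, 33.6% and 21.3% of the genes tested passed in clones 618-10, 618-3, 582-7 and 907-9.

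**Figure D2:**
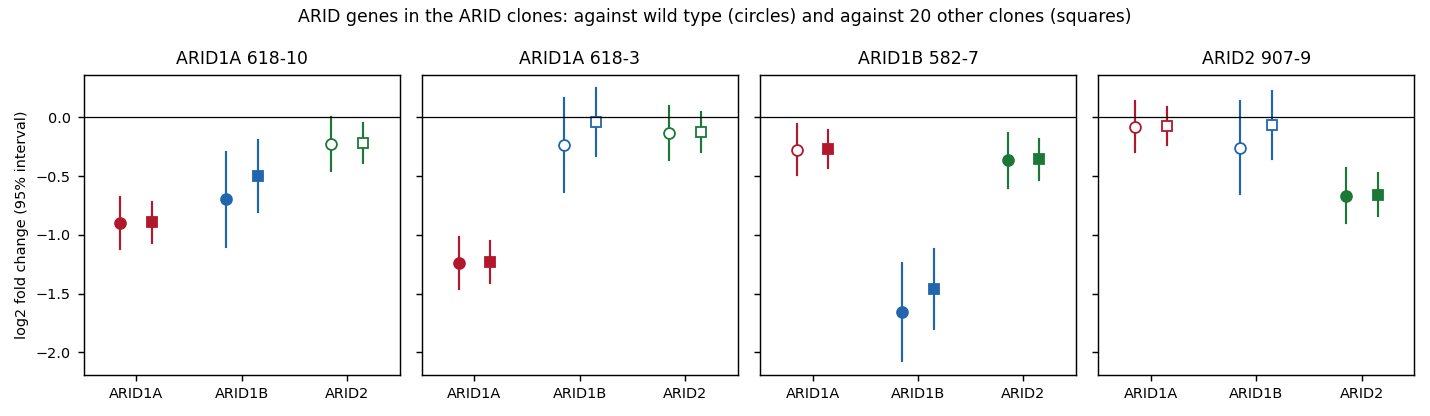
Log2 fold change with its 95% interval (vertical axis) of ARID1A (red), ARID1B (blue) and ARID2 (green) in the 4 ARID clones, against wild type (circles) and against the mean of the 20 other clones (squares); filled symbols passed at an adjusted p of 0.05. Every own loss is filled, from -0.66 for ARID2 to -1.66 for ARID1B, and no filled symbol lies above 0.

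Between the 2 ARID1A clones none of the 3 genes passed. ARID1A was 0.34 higher in 618-10 than in 618-3 on the log2 scale (95% interval from 0.12 to 0.56, adjusted p = 0.11, edgeR), and the 3 libraries of each did not overlap. ARID1B was 0.46 lower in 618-10 (fold change -0.46 on the log2 scale, 95% interval from -0.86 to -0.06, adjusted p = 0.38), and its libraries did not overlap either. The ARID2 difference was -0.09 (adjusted p = 0.91). Of all genes tested, 2.3% passed between these clones.

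Levels of different genes were set beside each other on the authors' quantile-normalized scale, which is labelled log2 TPM. For the 3 genes these values lay close to the log2 of CPM, such as 7.91 beside 241 CPM for ARID1A in wild-type replicate 1. No scaling to length was therefore visible in them. The longest annotated transcripts have 8583 bases for ARID1A, 10813 for ARID1B and 8642 for ARID2. Differences and shares between genes given below are thus not corrected for length. In wild type ARID1A was 7.91, 7.79 and 7.58 log2 TPM, ARID1B was 5.84, 5.66 and 5.64, and ARID2 was 5.60, 5.65 and 5.33. ARID1A stood 2.04 ± 0.09 above ARID1B and 2.23 ± 0.09 above ARID2 in log2 TPM (SD, n = 3). ARID1B and ARID2 differed by 0.19 ± 0.16 (ARID2 minus ARID1B -0.19, SD 0.16, n = 3), close to the spread between libraries. On the linear TPM scale ARID1A made up 68.7% ± 0.74 of the summed level of the 3 mRNAs in wild type, ARID1B 16.7% ± 0.99 and ARID2 14.6% ± 0.87 (SD, n = 3).

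ARID1A kept the highest value of the 3 on this scale, not corrected for length, in all 6 libraries of its own knockout clones. Its share of the summed TPM was 63.2%, 60.7% and 61.2% in the libraries of clone 618-10 and 49.9%, 52.1% and 53.4% in those of clone 618-3. The summed TPM of the 3 mRNAs was 316 ± 32.0 in wild type, 190 ± 10.9 in clone 618-10, 179 ± 5.93 in clone 618-3, 230 ± 18.3 in the ARID1B clone and 282 ± 16.2 in the ARID2 clone (SD, n = 3). The balance of the paralogs, ARID1B minus ARID1A in log2 TPM, was -2.04 ± 0.09 in wild type (SD, n = 3). It was -1.86 ± 0.24 in clone 618-10, overlapping wild type (exact permutation test, 2-sided p = 0.3). In clone 618-3 it was -1.06 ± 0.09, above all wild-type libraries (exact permutation p = 0.1). In the ARID1B clone it was -3.44 ± 0.54, below all of them (exact permutation p = 0.1). The smallest p that 3 against 3 allows is 0.1, and over these 3 comparisons the Benjamini-Hochberg values were 0.3, 0.15 and 0.15 (exact tests). The distance from wild type was 0.98 in 618-3, where ARID1A alone had passed as lower, and 0.19 in 618-10, where both paralogs had.

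**Figure D3:**
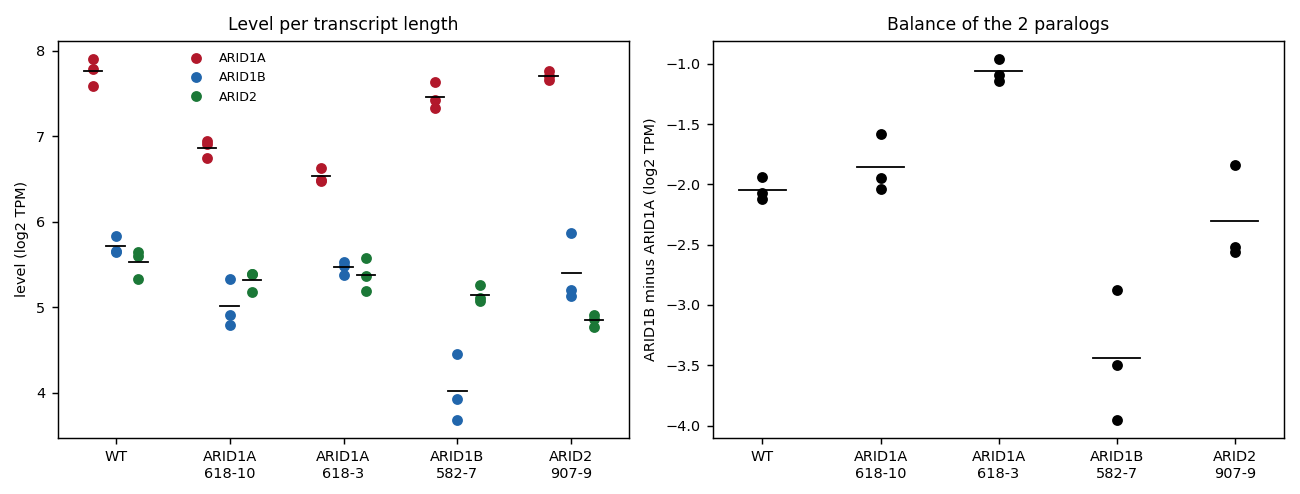
Left, level of ARID1A (red), ARID1B (blue) and ARID2 (green) in wild type and the 4 ARID clones, in values the authors label log2 TPM. These lay close to log2 CPM, with no visible scaling to length despite the panel title. Right, ARID1B minus ARID1A (log2 TPM) in the same libraries. Points are libraries and lines the means of 3; the wild-type mean of -2.04 in the right panel compares with -1.06 in ARID1A clone 618-3 and -3.44 in the ARID1B clone.

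In the 20 clones that had lost another subunit, 1 of the 60 comparisons of the 3 genes with wild type passed. ARID1A log2 fold changes ran from -0.12 to 0.12 and none passed in edgeR or DESeq2, and none had an unadjusted p under 0.05 (edgeR). For ARID2 they ran from -0.23 in the SMARCC2 clone to 0.17 in the BRD7 clone, none passed in edgeR or DESeq2 and 1 had an unadjusted p under 0.05 (edgeR). ARID1B was the most variable, from -0.57 in the ACTB clone to 0.22 in the SMARCC2 clone, and lay below wild type in 18 of the 20 clones. Those 20 comparisons share the same 3 wild-type libraries and are not independent, so nothing about ARID1B is read from that count. ARID1B passed in the ACTB clone alone, at 34.8, 30.8 and 38.2 CPM (log2 fold change -0.57 ± 0.20, SE, n = 3 against 3, edgeR, adjusted p = 0.041). ACTB encodes the actin that sits in BAF complexes. That call was lost without wild-type replicate 1, 2 or 3 (adjusted p = 0.14, 0.077 and 0.059) and without replicate 1 or 2 of the ACTB clone (adjusted p = 0.098 and 0.17). Over all 24 clones, ARID1A passed as lower in 2, ARID1B in 3 and ARID2 in 2, and none passed as higher in any.

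The share of all tested genes that passed against wild type gives the background for those counts. It was 34.9% and 32.8% in the SMARCA4 clones 2878-4 and 2878-6, 33.2% in SMARCC2, 19.5% in BCL7B, 17.6% in SMARCC1, 15.1% in ACTB and 14.2% in SMARCD1. It was 11% in BCL11A, 9.72% in BRD7, 9.67% in BCL11B, 9.12% in BCL7A, 8.55% in SMARCD3 and 8.27% in BRD9. It was 7.43% in PBRM1, 7.14% in PHF10, 7.12% in SMARCD2, 6.72% in DPF2, 4.41% in SMARCA2, 2.79% in DPF1 and 2.21% in DPF3. None of the 3 ARID genes passed in the SMARCA4 clones. Most genes tested did not pass there either, and the clones share the wild-type libraries. With 3 genes, nothing about them is read from this.

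Group means of ARID1A among the 23 groups that had not lost it ran from 179 CPM in the ARID1B clone to 237 CPM in the BCL7A clone, a ratio of 1.33. For ARID1B the means of 24 groups ran from 32.3 CPM in ARID1A clone 618-10 to 62.4 CPM in the SMARCC2 clone, a ratio of 1.93. For ARID2 they ran from 35.6 CPM in the ARID1B clone to 52.4 CPM in the BRD7 clone, a ratio of 1.47. For each gene the lowest mean outside its own knockouts was in a clone that had lost another ARID gene. For ARID1A and ARID2 this was the same clone, and each such clone overlapped the group next above it. No pattern of the family is read from this. Wild type came 8th for ARID1A, 3rd for ARID1B and 12th for ARID2 among the 25 group means. Most neighbours in these orders overlapped: the library ranges of 2 of 24 neighbouring pairs were separate for ARID1A, 2 for ARID1B and 1 for ARID2. For ARID1A both separate pairs were at the bottom, between the ARID1B clone and clone 618-10 and between clones 618-10 and 618-3. For ARID1B the SMARCC2 clone, whose samples are numbered apart from the other knockout samples, stood above its neighbour BCL7B. The ARID1B clone stood below ARID1A clone 618-10. For ARID2 only the ARID2 clone was separate from its neighbour, the ARID1B clone.

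Across the groups that kept the gene, the SD of the group means in log2 CPM was 0.08 for ARID1A, 0.19 for ARID1B and 0.11 for ARID2. Among the 10967 genes that averaged 5 CPM or more, 5.45%, 58.9% and 20.04% had a smaller SD over the same groups. By this measure ARID1A was among the steadier genes of the table and ARID1B near the median, which was 0.17. Genes were not matched for level, and counting noise enters these SDs. The median library of these groups had 213 CPM for ARID1A, 45.4 for ARID1B and 45.4 for ARID2.

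The genes whose group means ran most like each of the 3 are given as a description, over group means that share their wild type, line and libraries. For ARID1A, over 23 groups, these were EP300, a histone acetyltransferase (Pearson r = 0.79, Spearman rho = 0.60), ATP9A, a phospholipid flippase (r = 0.77, rho = 0.77), and SON, a splicing cofactor (r = 0.77, rho = 0.78). For ARID1B, over 24 groups, they were TRAF2, an adaptor of TNF receptors (r = 0.75, rho = 0.63), PLCG1, a phospholipase C (r = 0.70, rho = 0.54), and NELFA, a subunit of the negative elongation factor (r = 0.68, rho = 0.41). For ARID2, over 24 groups, they were SPIN1, a reader of histone methylation (r = 0.86, rho = 0.73), RSF1, a subunit of another nucleosome remodeller (r = 0.82, rho = 0.67), and DUSP16, a phosphatase of MAP kinases (r = 0.82, rho = 0.71). Among the 3 genes themselves ARID2 came 229th (r = 0.57, rho = 0.44) and ARID1B 185th (r = 0.59, rho = 0.20) in the order of likeness to ARID1A. In the order for ARID1B, ARID1A came 1354th and ARID2 4309th. In the order for ARID2, ARID1A came 397th and ARID1B 399th. Each order still includes the knockouts of the other ARID genes, whose own loss enters these values of r. With the gene's own knockouts included, the correlation of EP300 with ARID1A fell to 0.17 and that of PLCG1 with ARID1B to -0.06.

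The other genes of the complex were followed with a list of 28 BAF subunits, of which all but ACTL6B were tested. In clone 618-10, 1 of 27 passed as higher and 5 as lower, with a median log2 fold change of -0.11 against -0.01 over all genes tested, of which 9.69% passed as higher and 8.9% as lower. In clone 618-3, 2 passed as higher and 2 as lower (median -0.01 against -0.01, with 9.62% and 7.95% of all genes). In the ARID1B clone, 0 passed as higher and 5 as lower (median -0.11 against -0.02, with 13.1% and 11.7% of all genes). In the ARID2 clone, 1 passed as higher and 4 as lower (median -0.10 against -0.01, with 7.1% and 7.82% of all genes). No subunit on the list moved by a log2 fold change of 1 or more in these clones. The subunits that passed as lower in both ARID1A clones, named after their values were seen, were BCL11A, a zinc finger protein (-0.93 and -0.61), and PHF10, a PBAF subunit (-0.48 and -0.38). PHF10 was also lower in the ARID1B clone (-0.38). DPF3, a reader of histone acetylation, was higher in both ARID1A clones (0.68 in each). SMARCA2, the alternative ATPase, was higher in 618-3 (0.75, adjusted p = 0.0047), while in 618-10 its adjusted p was above the threshold.

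Of 11 genes with an ARID domain outside the complex, 2 passed as higher and 1 as lower in clone 618-10, 3 and 1 in clone 618-3, 1 and 3 in the ARID1B clone and 2 and 1 in the ARID2 clone. In the same order 9.69% and 8.9%, 9.62% and 7.95%, 13.1% and 11.7%, and 7.1% and 7.82% of all genes tested passed as higher and as lower. With 11 genes, a difference of a few calls from those shares is not read as a property of the list. Their median log2 fold changes were 0.01, 0.04, -0.18 and -0.07. ARID5B, a coactivator that works with a histone demethylase, was the only one past a 2-fold change, at -1.17 ± 0.19 in 618-10 and -1.03 ± 0.19 in 618-3 (SE, n = 3 against 3, edgeR). It was also lower in the ARID2 clone (-0.72 ± 0.19) and higher in the ARID1B clone (0.54 ± 0.18, adjusted p = 0.021). ARID3B, a paralog of ARID3A, was higher in 618-10 (0.53), 618-3 (0.33) and the ARID2 clone (0.52) and lower in the ARID1B clone (-0.63). JARID2, a partner of the Polycomb complex PRC2, was higher in both ARID1A clones (0.53 and 0.57). These contrasts share the wild-type libraries, and the difference between clones was not tested for these genes.

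**Figure D4:**
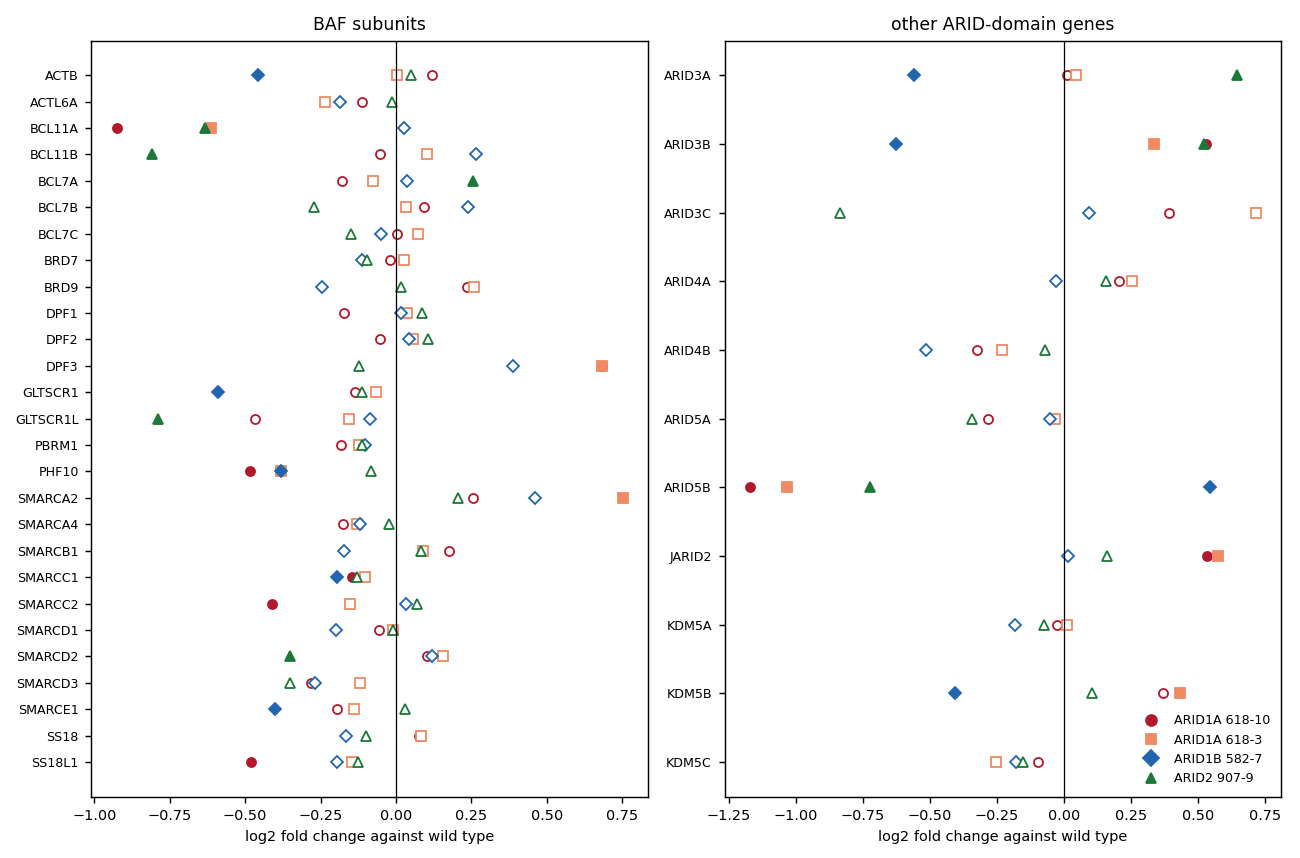
Log2 fold change against wild type (horizontal axis) of 27 BAF subunits (left) and 11 other ARID-domain genes (right) in the ARID1A clones 618-10 (circles) and 618-3 (squares), the ARID1B clone (diamonds) and the ARID2 clone (triangles); filled symbols passed at an adjusted p of 0.05. ARID5B lies furthest from 0 in both ARID1A clones, at -1.17 and -1.03.

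In the double-loss table the check of the labels held for SMARCA4 in the libraries that should lack it. SMARCA4 was 297 and 317 CPM in wild type with a control knockdown and 284 and 337 CPM in the ARID2 knockout with a control knockdown. It was between 10.7 and 28.3 CPM in the 6 libraries of the SMARCA4 knockout or of the ARID2 knockout with SMARCA4 knockdown. With both knockdowns it was 43.1 and 129 CPM, so that replicate 2 kept more of it.

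ARID2 separated its groups far less. It was 45.1 and 30.9 CPM in wild type with a control knockdown. The ARID2 knockout had 29.6 and 29.8 CPM, just below the lower of those libraries. The log2 fold change was -0.36 with a 95% interval from -1.05 to 0.34 (n = 2 against 2, edgeR, adjusted p = 0.88). ARID2 knockout with SMARCA4 knockdown had 48.3 CPM in replicate 1 and 23.6 CPM in replicate 2, so the library labelled replicate 1 went above every wild-type library of the table. The log2 fold change was -0.15 with both libraries, 0.26 without replicate 2 of the group and -0.71 without replicate 1 (edgeR).

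The ARID2 knockdown was measured in both backgrounds. In the SMARCA4 knockout ARID2 was 50.3 and 31.3 CPM with the control knockdown and 27.9 and 23.7 CPM with the ARID2 knockdown, groups that did not overlap. The log2 fold change between them was -0.66 with a 95% interval from -1.35 to 0.03 (n = 2 against 2, edgeR, adjusted p = 0.83). In wild type with both knockdowns ARID2 was 28.6 and 27.3 CPM, below both control libraries (log2 fold change -0.46, 95% interval from -1.15 to 0.23, adjusted p = 0.58). The SMARCA4 knockout with ARID2 knockdown differed from wild type by -0.60 (95% interval from -1.29 to 0.10, adjusted p = 0.26). All 3 intervals, from fits without a replicate term, reach from just above 0 to below a 2-fold loss. The size of the knockdown was therefore not resolved with 2 libraries a group.

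Over the 7 comparisons of that table, none of the 21 tests of the 3 genes passed in edgeR or in DESeq2, and 0 had an unadjusted p under 0.05 in edgeR. Against the wild-type control, 1.65% of the 14601 genes tested passed in the ARID2 knockout, 15% in the ARID2 knockout with SMARCA4 knockdown, 7.85% in the SMARCA4 knockout, 11.8% in the SMARCA4 knockout with ARID2 knockdown and 0.651% in the double knockdown. SMARCA4 knockdown within the ARID2 knockout gave 4.52%. ARID2 knockdown within the SMARCA4 knockout gave 0.0205%, or 3 genes, with 900 at an unadjusted p under 0.05.

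In CPM, ARID1A was 216 and 153 in wild type with a control knockdown, and 237 and 245 in the ARID2 knockout with SMARCA4 knockdown. Those groups did not overlap, but the log2 fold change of 0.33 had a 95% interval from -0.03 to 0.69 (n = 2 against 2, edgeR, adjusted p = 0.19). Without replicate 1 of the wild-type control it was 0.60 with an adjusted p of 0.037 (edgeR). ARID1A was 223 and 204 CPM in the ARID2 knockout, 228 and 194 CPM in the SMARCA4 knockout, 231 and 226 CPM in the SMARCA4 knockout with ARID2 knockdown, and 228 and 195 CPM with both knockdowns.

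ARID1B in CPM was 50.8 and 35.8 in the wild-type control and 55.9 and 58.9 in the ARID2 knockout, again without overlap (log2 fold change 0.41, 95% interval from -0.02 to 0.84, n = 2 against 2, edgeR, adjusted p = 0.56). In the knockout table the same comparison of genotypes gave -0.26, and since the tables were fitted separately the difference between them was not tested. ARID1B was 47.3 and 48.0 CPM in the ARID2 knockout with SMARCA4 knockdown, 41.1 and 33.1 CPM in the SMARCA4 knockout, 44.1 and 40.5 CPM in the SMARCA4 knockout with ARID2 knockdown and 41.7 and 46.8 CPM with both knockdowns. Replicate 2 of the wild-type control was the lower of its pair for all 3 ARID genes. Without it the log2 fold change of ARID1A was -0.01 in the ARID2 knockout, -0.07 in the SMARCA4 knockout and -0.04 in the double knockdown, in place of small positive values. That leaves replicate 1 as the only control, and in all 3 groups ARID1A was above the control library of the same number in both replicates. Same-numbered libraries of these groups and the control correlated at 0.45, 0.53 and 0.43 in their deviations from the group means, so leaving out 1 control also unbalances the numbers.

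**Figure D5:**
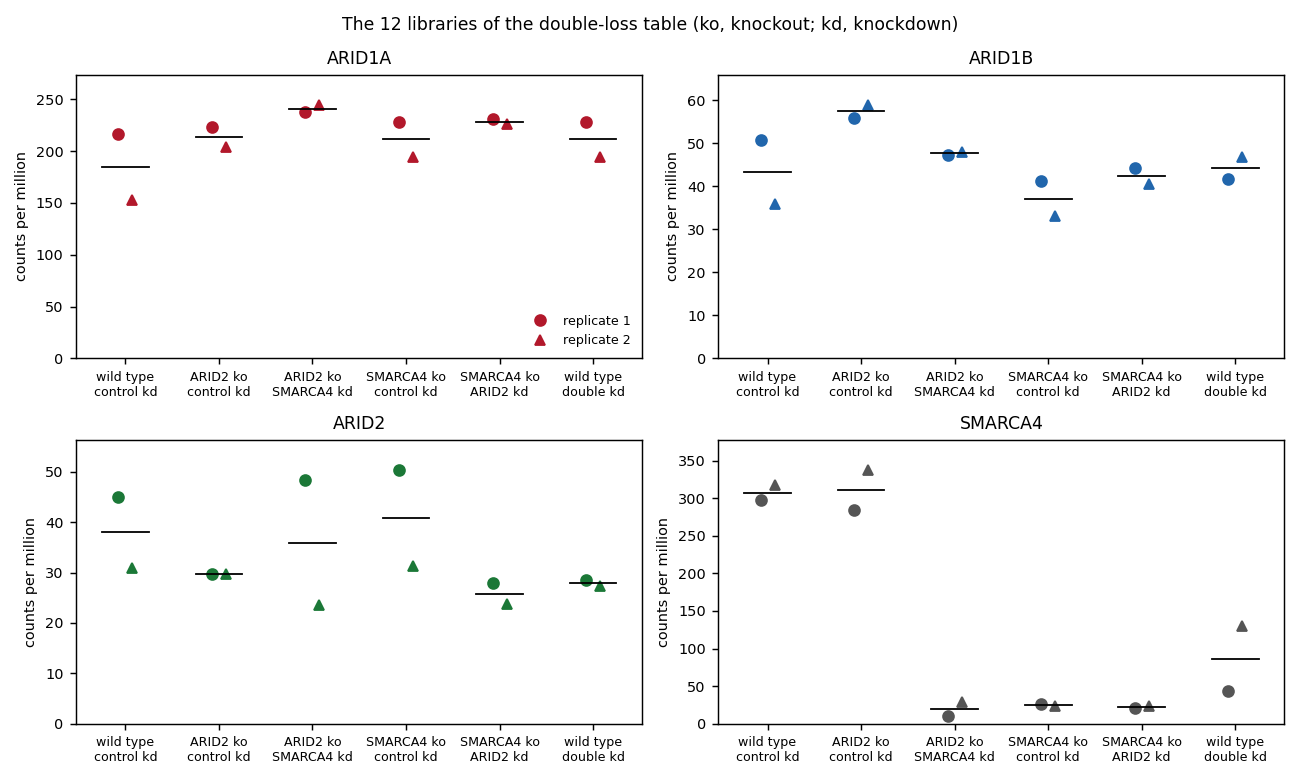
CPM (vertical axis, from 0) of ARID1A, ARID1B, ARID2 and SMARCA4 in the 12 libraries of the double-loss table, with replicate 1 as circles, replicate 2 as triangles and lines for the means of 2. SMARCA4 is at most 28.3 in the 6 libraries that lost it by knockout or by knockdown in the ARID2 knockout, whereas ARID2 reaches 48.3 in 1 library of its own knockout.

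Of the 27 BAF subunits tested, 7 passed against the wild-type control in the ARID2 knockout with SMARCA4 knockdown, where 15% of all genes did (edgeR). In the SMARCA4 knockout 4 passed, with 7.85% of all genes, and in the SMARCA4 knockout with ARID2 knockdown 5 passed, with 11.8%. SMARCA4 knockdown within the ARID2 knockout gave 5, with 4.52% of all genes. None passed in edgeR in the ARID2 knockout (1.65% of all genes), in the double knockdown (0.651%) or for ARID2 knockdown within the SMARCA4 knockout (0.0205%), where 3, 3 and 1 of the subunits had an unadjusted p under 0.05. Of the ARID-domain genes outside the complex 10 were tested in this table. Against the control 2 passed in the ARID2 knockout with SMARCA4 knockdown, 4 in the SMARCA4 knockout and 1 in the SMARCA4 knockout with ARID2 knockdown, and 1 passed for SMARCA4 knockdown within the ARID2 knockout. In the other 3 comparisons none of the 10 passed in edgeR, with 2, 0 and 0 at an unadjusted p under 0.05 in the order just given. SMARCA4 is itself a member of the first list, and the members of neither list are read beyond these shares. Among the BAF subunits the members past a 2-fold change were SMARCA4 itself, with log2 fold changes from -4.03 to -3.66, GLTSCR1L, a subunit of the non-canonical complex, and BCL11A and BCL11B, which are zinc finger subunits. GLTSCR1L was higher by 1.82 for SMARCA4 knockdown within the ARID2 knockout, by 1.09 for that group against the wild-type control, and by 1.33 in the SMARCA4 knockout. BCL11A and BCL11B were lower in the SMARCA4 knockout, with log2 fold changes of -2.10 and -3.29, and in the SMARCA4 knockout with ARID2 knockdown, with -1.79 and -2.43. ARID3A, an ARID-domain transcription factor, fell by 1.11 in the ARID2 knockout with SMARCA4 knockdown (edgeR, adjusted p = 0.0044).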

How the data were processed

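Poly-A RNA libraries of HAP1 clones were used as 2 gene tables of deposited estimated counts per gene (whole numbers, none below 1), and as a table of log2 TPM values that the authors had quantile-normalized, per the file headers. Per the submitters' processing notes, Trimmomatic, Bowtie, Picard and DESeq2 were among the tools and GRCh37 (hg19) the build. The counting tool is not given in the sources used here. Columns were matched to samples by title, and 8 columns that matched no labelled sample were not used. The log2 TPM table lacked matched columns for SMARCC2 and for PBRM1 replicate 1.

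CPM is the count as a share of the summed counts of its library, scaled to 1000000. Counts, rounded to whole numbers, were tested with edgeR 4.0.16 quasi-likelihood fits (TMM, filterByExpr, robust, 1 term per group, each table on its own), with Benjamini-Hochberg adjustment over all genes tested. A gene passed at an adjusted p of at most 0.05. Counts were simulated for clone 618-3 against wild type (15852 genes), with the same dispersion for every gene and no replicate effect. Changed genes were drawn from those with a mean above 100 counts. The fit passed 100% of genes changed 2-fold, 50% of those changed 1.5-fold and 0.0703% of unchanged genes. These shares hold for that setting and are not error rates for the real data. Alternatives were DESeq2 1.42.0, total counts without TMM, no filter, a replicate block, only the groups compared, limma 3.58.1 on log2 TPM, and leaving out libraries. Named beyond the 3 genes were list members that passed with a log2 fold change of at least 1, or that passed in several clones (the latter chosen after their values were seen), and for each gene the 3 with the most similar group means. Replicate numbers were treated as names in the main fits, which have no term for them. The median correlation of same-numbered libraries was -0.005 in the knockout table, where 49 of 75 libraries correlated best with their own number. In the double-loss table, which has 2 numbers a group, same-numbered libraries correlated at 0.09 to 0.53. The main fits leave this shared part in the spread, and the replicate block was run as an alternative. No replicate pair agreed within counting noise (lowest chi-square per degree of freedom 7.45). Sequences came from GENCODE 29 on GRCh38, while the counts used GRCh37, so gene coordinates of the counts are not printed. The genes and lists were chosen with earlier results of these data known.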

Additional observations from a re-analysis of the deposited data

How the results depend on the processing

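For 49 fold changes 477 alternatives were computed, and 434 kept the direction and the side of the threshold. For the numbers of clones with a lower level of each of the 3 genes, 28 of 36 alternatives were within 1.5 times the reported number. All 4 own losses in the knockout table did so under each alternative run, with adjusted p of at most 0.0056. ARID1A in the ARID1B clone against wild type passed with the replicate block (log2 fold change -0.27, adjusted p = 0.039) and with limma on log2 TPM (-0.29). ARID2 in that clone no longer passed without the filter on low counts (-0.33) or with only the groups compared (-0.37), so the number of clones with lower ARID2 fell from 2 to 1 under both. ARID2 in clone 618-10 against the other clones passed with the replicate block (-0.22) and with limma (-0.21). ARID1B in the ACTB clone was at -0.55 without the filter (adjusted p = 0.11). Apart from the results that use fewer libraries, the cause of these changes was not tested.

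Leaving out single libraries gave ranges of log2 fold changes. In the ARID1B clone ARID1A ran from -0.38 to -0.19 against wild type and from -0.37 to -0.22 against the other clones, and ARID2 from -0.47 to -0.30 against wild type. In clone 618-10 ARID1B ran from -0.87 to -0.59 and from -0.67 to -0.40 on the same references, and ARID2 from -0.19 to 0.015 against clone 618-3. ARID1B in clone 618-3 ran from -0.068 to 0.0014 against the other clones. In the ARID2 clone ARID1A ran from -0.17 to 0.0097 against wild type and ARID1B from -0.33 to 0.070 against the other clones. The number of clones with a lower level ran from 1 to 3 for ARID1B and from 1 to 3 for ARID2.

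In the double-loss table, where 1 library then stands for a group and is assumed to vary like the others, signs turned often. Against the wild-type control ARID2 ran from -0.71 to 0.26 in the ARID2 knockout with SMARCA4 knockdown and from -0.32 to 0.37 in the SMARCA4 knockout, and from -0.34 to 0.63 for SMARCA4 knockdown within the ARID2 knockout. ARID1A ran from -0.012 to 0.48 in the ARID2 knockout, from -0.069 to 0.42 in the SMARCA4 knockout, from -0.035 to 0.45 in the double knockdown, from 0.11 to 0.60 in the ARID2 knockout with SMARCA4 knockdown, and from -0.0031 to 0.24 for ARID2 knockdown within the SMARCA4 knockout. ARID1B ran from -0.14 to 0.35 in the ARID2 knockout with SMARCA4 knockdown, from -0.30 to 0.20 in the SMARCA4 knockout with ARID2 knockdown, from -0.49 to 0.0058 in the SMARCA4 knockout and from -0.20 to 0.29 in the double knockdown.

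Same-numbered libraries correlated at 0.09 to 0.53 in their deviations in the double-loss table, and 12 of 12 libraries correlated best with their own number. With the replicate block the genes that passed there went from 241 to 473 in the ARID2 knockout, from 2185 to 3811 with SMARCA4 knockdown added, from 1146 to 1945 in the SMARCA4 knockout, from 1716 to 2939 with ARID2 knockdown added, from 95 to 582 in the double knockdown, from 660 to 1867 for SMARCA4 knockdown within the ARID2 knockout and from 3 to 22 for ARID2 knockdown within the SMARCA4 knockout. It left every ARID gene of that table above the threshold. Of the 75 knockout libraries, 49 correlated best with their own number.

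For these 7 comparisons in that order DESeq2 passed 395, 2821, 1444, 2099, 372, 1400 and 20 genes, and edgeR on only the groups compared 114, 948, 636, 1543, 0, 142 and 2, where the double knockdown had 1400 at an unadjusted p under 0.05. Without the filter the sixth comparison gave 368. Leaving out a library of these groups gave 82 to 222, 852 to 2765, 640 to 832, 758 to 1631, 0 to 90, 65 to 1513 and 0 in each case (edgeR), the last with 396 to 1083 at an unadjusted p under 0.05 and the double knockdown with 877 where none passed. In the knockout table, only the groups compared gave 1913 against 3004 genes in clone 618-10, 1582 against 2411 in the ARID2 clone and 171 against 372 between the ARID1A clones, and moved 15 of the other 20 clones by over 1.5 times. Without every replicate 2 the 4 ARID clones gave 1613, 1745, 2217 and 1322. Without wild-type replicate 2 the BCL11A clone gave 1171 against 1771.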
